A study of Mus musculus with 2 samples.

Results

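The genes described here are those of the transforming growth factor beta (TGF-beta) and bone morphogenetic protein (BMP) pathways, taken by symbol: every gene of the deposited expression table whose symbol names a Bmp, Gdf (without Gdf15), Tgfb, Tgfbr, Bmpr, Acvr, Inhb, Smad, Id1 to Id4, Grem, Nog, Chrd or Fst gene. The rule used no measured value and gave 63 of the 24013 genes analysed. They comprised 26 ligands, 12 receptors, 8 SMADs, 7 antagonists, 4 Id genes and 6 genes that share a symbol with the pathway without belonging to these roles. The cells were mouse embryonic fibroblasts, connective tissue cells grown from embryos, cultured in DMEM with fetal bovine serum and antibiotics. Poly(A)+ RNA was sequenced from 1 culture labelled Adar2-WT (genotype Adar2+/+) and 1 labelled Adar2-KO (genotype Adar2-/-). Adar2, listed as Adarb1, is an enzyme that converts adenosine to inosine in double-stranded RNA. The deleted exon, the mouse strain, the embryonic age and the number of embryos behind each culture are not stated in the labels.

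Ligands of this family are secreted dimers that bring together type I and type II receptor kinases at the cell surface. The receptors phosphorylate SMAD proteins: Smad2 and Smad3 after TGF-beta or activin, and Smad1, Smad5 and Smad9 after BMPs and the joint-forming GDFs. These enter the nucleus with Smad4, while Smad6 and Smad7 inhibit the signal and secreted antagonists such as chordin, noggin and follistatin bind ligands outside the cell. In fibroblasts the TGF-beta branch is known for matrix and contractile genes, and the BMP branch for Id genes and for skeletal patterning in the embryo.

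Adarb1 itself had 18.4 RPKM (a read count divided by gene length and by library size; 1155 reads) in the library labelled WT and 25.8 RPKM (1633 reads) in the library labelled KO. The transcript of the targeted gene was thus not lower in the KO-labelled cells; reads over a whole gene cannot show whether 1 exon is missing. Cells are named by their labels, WT-labelled and KO-labelled, and every direction rests on those labels. RNA editing sites, listed for each library, numbered 654 in 204 genes in the WT-labelled cells and 110 in 69 genes in the KO-labelled cells. They were thus fewer in the library labelled as lacking Adar2. Adar, the gene of another editing enzyme, had 28.0 RPKM (1600 reads) in the WT-labelled cells and 18.7 RPKM (1081 reads) in the KO-labelled cells. Its part in the number of sites was not tested. The values rest on 9446911 and 9546997 reads. Fibroblast markers were present in both libraries: all 8 were at 1 RPKM or more, with summed levels of 415 and 458 RPKM. Thy1 differed most (9.40 and 72.1 RPKM); without it the other 7 summed to 406 and 386 RPKM, and Pdgfra (log2 ratio -0.46) and Pdgfrb (-0.42) were the lowest in ratio. With 1 library per genotype there is no spread between cultures to hold a difference against, no test of genotype was possible, and intervals cover counting error only.

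Of the 63 genes, 46 had at least 1 RPKM in a library and were compared as log2((KO + 1)/(WT + 1)) of RPKM, on which differences of low genes come out too small. The other 17 stayed under that level, 8 of them at 0 in both libraries, and the highest of the 17 was Nog at 0.661 RPKM. On this scale 10 of the 46 genes (21.7%) had a KO-labelled value at least 2-fold lower, where 7.46% of all 13865 compared genes were. At least 2-fold higher were 2 genes (4.35%), where 4.42% of all compared genes were. The median log2 ratio of the 46 genes was -0.14, beside 0.01 over all compared genes. Below 0 lay 31 of the 46 (67.4%), beside 49.2% of all compared genes. The 12 genes past 2-fold were spread over ligands (4), receptors (3), SMADs (1), antagonists (2) and Id genes (2). Of the 46, 6 reached 1 RPKM in 1 library only, and 5 of those are among the 12, so the count depends in part on the filter: among the 40 genes at 1 RPKM or more in both libraries, 1 was higher and 6 were lower by 2-fold, where 2.3% and 4.05% of all 12555 genes under the same filter were. All 12 also had a GFOLD value (a log2 fold change shrunken toward 0 where reads are few) of at least 1 in size and of the same sign in the authors' deposited table, where 3.21% of all compared genes had a GFOLD value of 1 or more and 5.6% one of -1 or less.

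**Figure D1:**
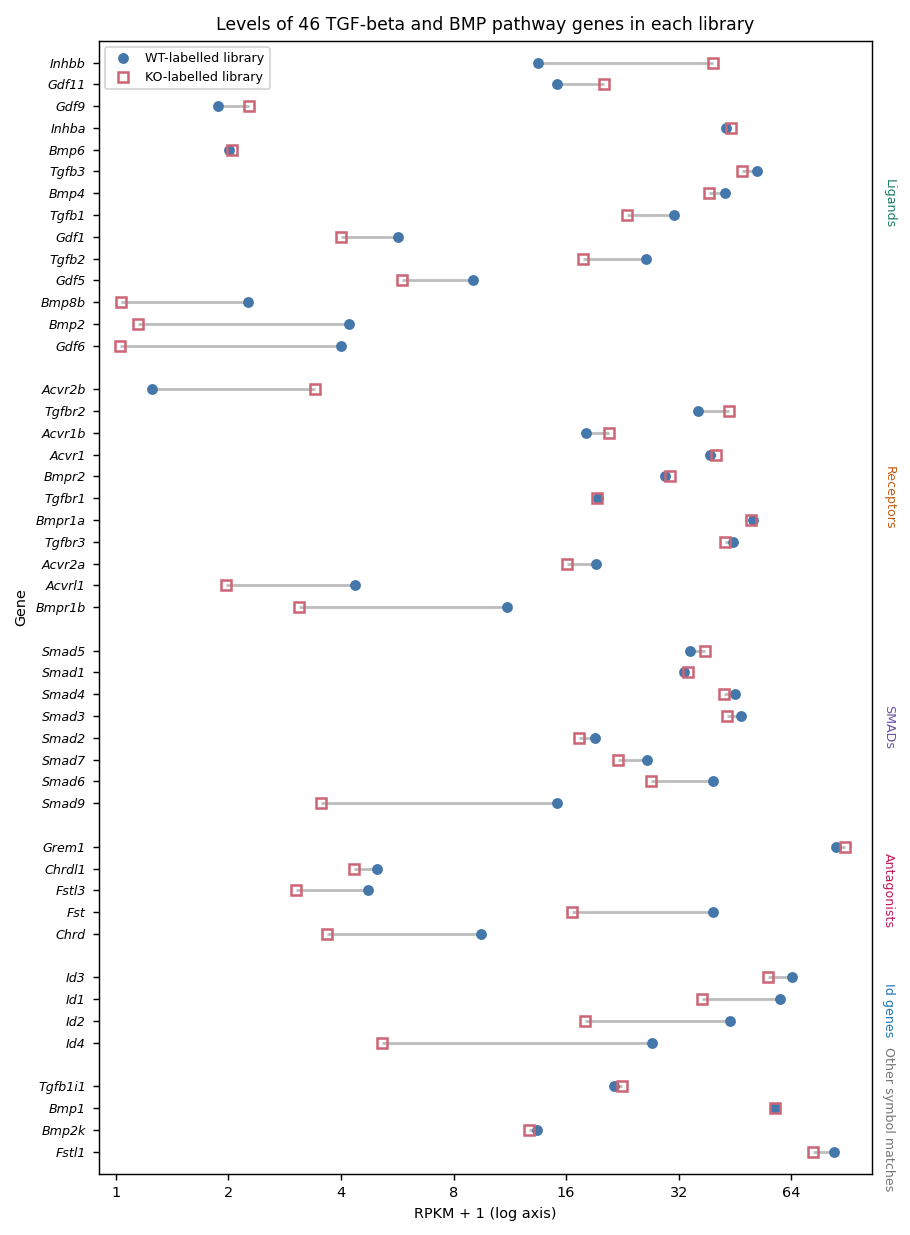
RPKM + 1 (horizontal, log axis) of the 46 compared genes, by role; circles are the WT-labelled cells, open squares the KO-labelled cells, and the line joins both values of a gene. Most receptors and SMADs have symbols that nearly overlap, while Id4, Smad9, Bmpr1b, Gdf6 and Bmp2 lie far to the left in the KO-labelled cells and Inhbb and Acvr2b to the right.

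**Figure D2:**
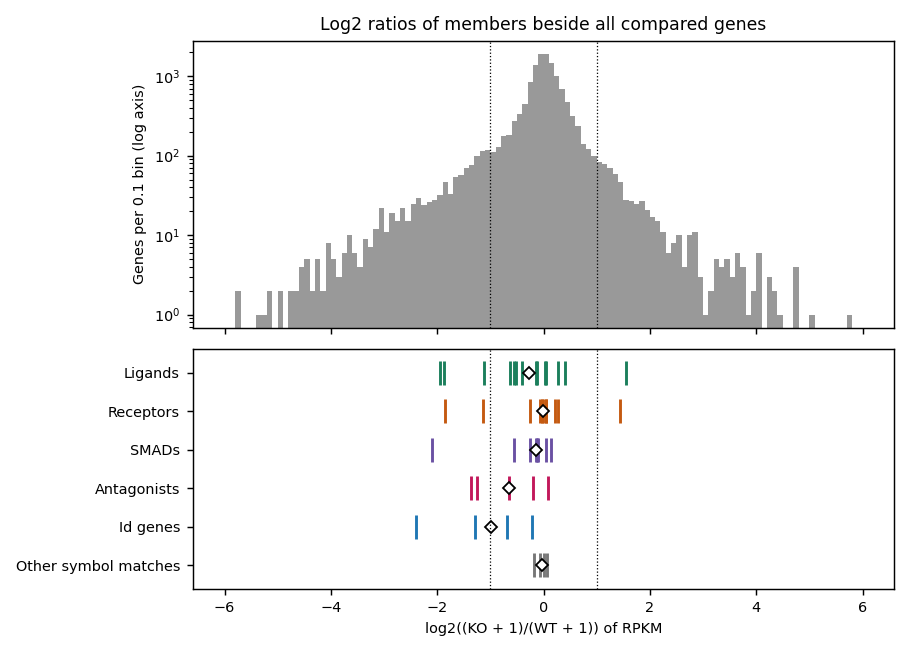
Top, the number of genes per bin of 0.1 in log2((KO + 1)/(WT + 1)) over all 13865 compared genes (vertical log axis); bottom, the same ratio of each of the 46 genes as a tick by role, with the median of the role as a diamond and dotted lines at 2-fold. The medians of the antagonists (-0.64) and Id genes (-0.99) lie left of those of the receptors (-0.01) and SMADs (-0.13).

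Among the ligands, the genes at least 2-fold lower were BMP and GDF genes of low level and the one at least 2-fold higher encodes an activin subunit. The 3 TGF-beta isoforms were all well expressed. Tgfb3 had 50.8 RPKM in the WT-labelled cells and 46.4 in the KO-labelled cells, Tgfb1 had 30.0 and 22.3, and Tgfb2 had 25.2 and 16.8. The order Tgfb3, Tgfb1, Tgfb2 held in both libraries, and their summed level was 106 and 85.4 RPKM. Each was lower in the KO-labelled cells by less than 2-fold, with log2 ratios of -0.13, -0.41 and -0.56 for Tgfb3, Tgfb1 and Tgfb2, and the counting interval of each lay below 0.

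Inhbb, which encodes the subunit of activin B, had 12.5 RPKM (501 reads) in the WT-labelled cells and 38.6 RPKM (1569 reads) in the KO-labelled cells. It was the only ligand gene at least 2-fold higher in the KO-labelled cells (log2 ratio 1.56; 95% interval of the log2 ratio of reads 1.49 to 1.78). Inhba, encoding the subunit of activin A, was close in both, at 41.9 and 43.0 RPKM (605 and 628 reads). Inhbb thus made up 22.9% of the summed beta subunit level in the WT-labelled cells and 47.3% in the KO-labelled cells. Inhbc and Inhbe, known mainly from liver, had at most 2 reads in either library. Inha, the alpha subunit that turns a beta subunit into inhibin, lies outside the symbol rule and had 8.25 and 10.5 RPKM.

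Bmp4 was the highest BMP or GDF gene in both libraries, with 41.5 RPKM (781 reads) and 37.5 RPKM (714 reads), and its interval (-0.29 to 0.00) held 0. Bmp2, the close relative of Bmp4, had 3.21 RPKM (108 reads) in the WT-labelled cells and 0.147 RPKM (5 reads) in the KO-labelled cells. Its log2 ratio of reads was -4.45 (interval -6.10 to -3.18). Gdf6, a ligand of joint and skull patterning, had 2.997 RPKM (100 reads) and 0.030 RPKM (1 read), with a log2 ratio of reads of -6.66 (-11.98 to -4.15). Bmp8b had 1.26 RPKM (35 reads) and 0.036 RPKM (1 read; interval -10.49 to -2.57). For these 3 ligands the KO-labelled value rests on so few reads that only the interval, not the ratio, has a meaning. Bmp8a, whose sequence is so near that of Bmp8b that reads could be split between them, had 5 and 3 reads.

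The remaining ligands lay within 2-fold. Gdf11, a ligand of axial patterning that signals through Smad2 and Smad3, had 14.1 and 19.1 RPKM (log2 ratio 0.41). Gdf5, a joint-forming factor and relative of Gdf6, had 8.002 and 4.84 RPKM (log2 ratio -0.62). Gdf1 had 4.70 and 2.99 RPKM, but its reads cannot be separated from those of Cers1, with which it shares a transcript: Gdf1 had 121 and 78 reads and Cers1 117 and 75. Gdf9 (0.880 and 1.28 RPKM) and Bmp6 (1.01 and 1.04 RPKM) had 15 to 24 reads per library and intervals that held 0. The other 12 ligands were under 1 RPKM: Bmp5, Bmp7, Bmp10, Gdf2, Gdf3 and Gdf10 had no read in either library, and Bmp3, Bmp8a, Bmp15, Gdf7, Inhbc and Inhbe reached at most 0.299 RPKM.

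The main receptors of both branches were nearly level between the libraries, and the differences past 2-fold lay in receptors with lower values. Tgfbr2, the type II receptor that binds TGF-beta, had 35.1 RPKM (1588 reads) and 42.5 RPKM (1943 reads), log2 ratio 0.27. Its type I partner Tgfbr1 had 18.5 and 18.3 RPKM, and the coreceptor Tgfbr3 (betaglycan) 43.6 and 41.5 RPKM. These values differ little beside the 2-fold threshold. Of the activin receptors, Acvr1b had 17.1 and 19.9 RPKM and Acvr2a 18.2 and 15.1 RPKM, with log2 ratios of 0.21 and -0.26. For the BMP receptors, Bmpr1a had 49.6 and 48.8 RPKM, Bmpr2 28.4 and 29.4 RPKM, and Acvr1 37.7 and 39.1 RPKM. Their log2 ratios were -0.02, 0.04 and 0.05. Bmpr1a, the highest receptor gene, had 0.469 reads per base in the WT-labelled cells, where the highest of any gene was 1.01. Whether compression of high values shares in the small ratios of the main receptors was not tested.

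Bmpr1b, a BMP type I receptor known from limb cartilage, had 10.1 RPKM (558 reads) in the WT-labelled cells and 2.08 RPKM (116 reads) in the KO-labelled cells. It was lower in the KO-labelled cells by 3.61-fold on the scale of RPKM + 1, with a log2 ratio of reads of -2.28 (interval -2.58 to -1.99). Its share of the summed level of Acvr1, Bmpr1a and Bmpr1b was 10.4% and 2.32%. Acvrl1 (ALK1), a type I receptor best known from endothelium, had 3.35 RPKM (120 reads) and 0.968 RPKM (35 reads; interval -2.38 to -1.24). Endothelial markers were also lower, as were some, but not all, markers of other lineages given below. The summed level of Pecam1, Cdh5, Kdr and Tek was 3.998 and 0.409 RPKM. Of these only Tek reached 1 RPKM (2.39 and 0.134 RPKM). Kdr had 50 and 8 reads, Pecam1 15 and 3 reads, and Cdh5 6 reads and 1 read (0.159 and 0.026 RPKM). The part of endothelial cells in the Acvrl1 values was not tested. In bulk RNA, fewer cells of a type and less RNA per cell cannot be told apart.

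Acvr2b, a type II receptor for activins and GDFs, went the other way, with 0.249 RPKM (4 reads) in the WT-labelled cells and 2.402 RPKM (39 reads) in the KO-labelled cells (log2 ratio of reads 3.27; interval 1.80 to 5.22). It stayed far below Acvr2a in both. Acvr1c had 5 reads and 1 read and was not compared.

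Of the 8 SMAD genes 7 lay within 2-fold, between log2 ratios of -0.55 and 0.14, as did 12218 of all 13865 compared genes. Smad3 had 45.9 and 42.0 RPKM, Smad4 44.3 and 41.4 RPKM, and Smad2 18.1 and 16.3 RPKM, with log2 ratios between -0.14 and -0.10. The BMP-activated Smad1 (31.98 and 33.0 RPKM) and Smad5 (33.3 and 36.7 RPKM) were at log2 ratios of 0.04 and 0.14. So the transducers shared by all ligands, and those of both branches except Smad9, lay within 2-fold, as most compared genes did. Whether compression of high values shares in the ratios of Smad3 and Smad4 was not tested. Smad9, the third BMP-activated SMAD, had 14.1 RPKM (719 reads) in the WT-labelled cells and 2.53 RPKM (130 reads) in the KO-labelled cells. The log2 ratio was -2.10 (interval of the log2 ratio of reads -2.76 to -2.21), and its share of the summed level of Smad1, Smad5 and Smad9 was 17.8% and 3.51%. The inhibitory SMADs were lower by less than 2-fold: Smad6, which acts mainly on BMP signals, had 38.4 and 26.0 RPKM (log2 ratio -0.55), and Smad7, which acts on both branches, 25.4 and 21.0 RPKM (log2 ratio -0.26).

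**Figure D3:**
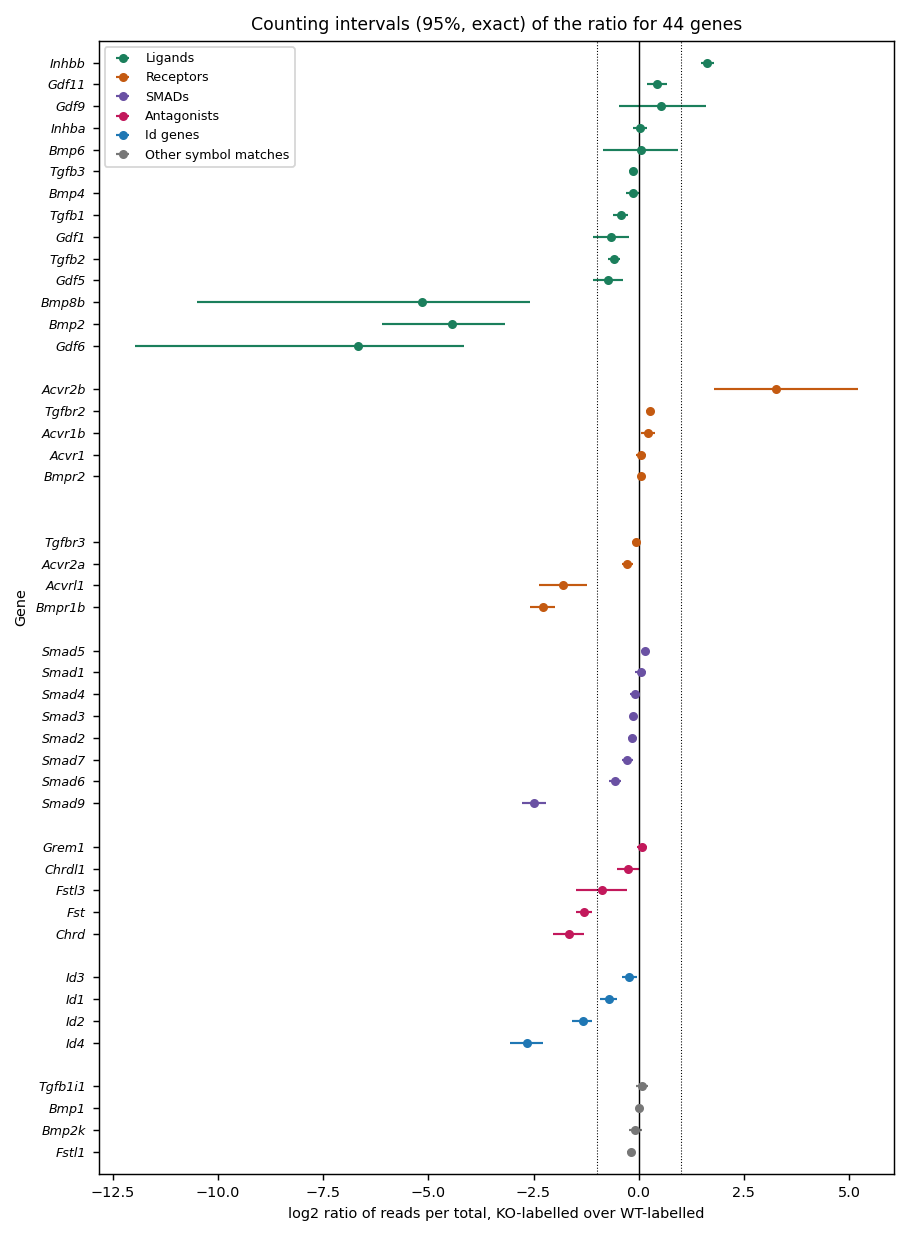
Log2 ratio of reads per total (horizontal), KO-labelled over WT-labelled, with exact 95% counting intervals (bars) for the 44 compared genes with recovered reads, coloured by role; dotted lines mark 2-fold. Intervals of 24 genes lie below 0, of 6 above 0, and 14 hold 0. The same shares over all compared genes are not given, so these counts describe the 44 genes only. The intervals of Gdf6, Bmp2, Bmp8b and Acvr2b are wide because 1 library has 5 reads or fewer.

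Of the secreted antagonists, 5 of 7 were compared, and Fst and Chrd were the 2 with a KO-labelled value lower by 2-fold or more. Grem1, a BMP-binding antagonist of the DAN family, was high in both libraries, at 83.4 RPKM (1291 reads) and 88.1 RPKM (1378 reads), and its interval (-0.03 to 0.19) held 0. Grem1 was the highest of the 63 genes in both libraries and lay near the top of the whole table, where the highest values of any gene were 107 and 124 RPKM. These top values equal 1.01 and 1.19 reads per base of gene, and whether values near them are compressed was not tested.

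Fst (follistatin), which binds activins, had 38.4 RPKM (848 reads) in the WT-labelled cells and 15.6 RPKM (348 reads) in the KO-labelled cells (log2 ratio -1.25; interval of the log2 ratio of reads -1.48 to -1.12). Fst was thus lower in the library in which Inhbb was higher. Its relative Fstl3 had 3.74 RPKM (69 reads) and 2.04 RPKM (38 reads), within 2-fold. Chrd (chordin), which binds BMPs and is cut by the Bmp1 protease, had 8.46 RPKM (267 reads) and 2.66 RPKM (85 reads; log2 ratio -1.37). Chrdl1 had 3.99 and 3.34 RPKM (interval -0.52 to 0.01), Nog (noggin) 12 and 11 reads, and Chrdl2 none.

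**Figure D4:**
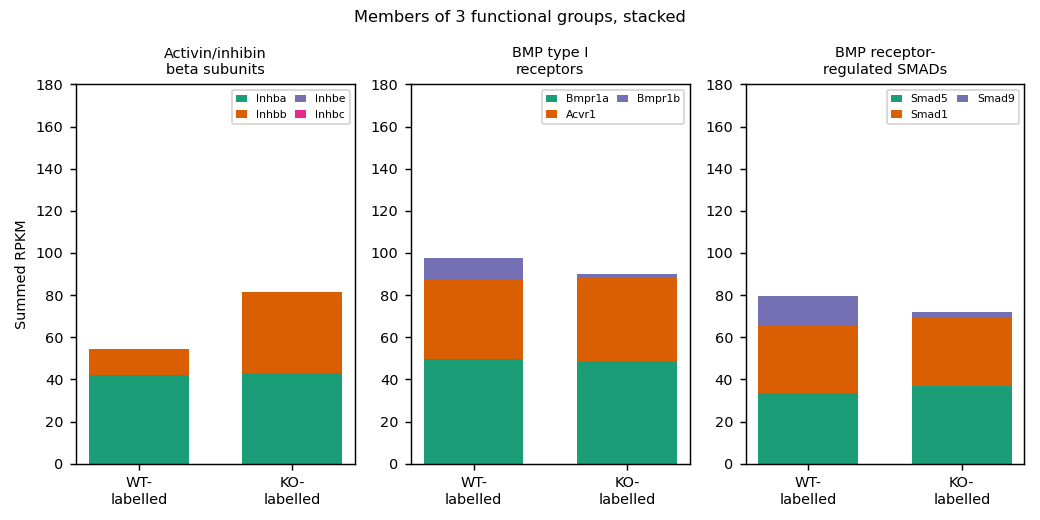
Summed RPKM (vertical) of 3 functional groups in the WT-labelled and KO-labelled cells, stacked by gene. The Inhbb part is 22.9% and 47.3% of the beta subunits, while the parts of Bmpr1b and Smad9 are thin in the KO-labelled cells.

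Id genes encode inhibitors of basic helix-loop-helix transcription factors and are among the best known direct targets of BMP-activated SMADs. Each of the 4 had its lower value in the KO-labelled cells, 2 of them by at least 2-fold, and the median log2 ratio was -0.99. By the GFOLD value of the authors' deposited table Id3 stood at 0 and the other 3 stayed below it. Id3 had 63.3 RPKM (570 reads) and 54.3 RPKM (494 reads), and Id1 had 58.7 RPKM (518 reads) and 35.9 RPKM (320 reads; log2 ratio -0.69). These, the highest Id genes, differed least. Id2 had 42.8 RPKM (514 reads) and 17.0 RPKM (206 reads; log2 ratio -1.29, interval of the log2 ratio of reads -1.57 to -1.10). Id4 had 26.1 RPKM (410 reads) and 4.16 RPKM (66 reads; log2 ratio -2.39, interval -3.05 to -2.27). In the order of their level in the WT-labelled cells, from Id3 to Id4, the Id genes thus had ratios of increasing size. In those cells Id3 and Id1 had 0.598 and 0.555 reads per base and Id4 0.247, where the highest of any gene was 1.01. Whether compression of high values shares in this order was not tested.

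The promoters of Id2, Id4, Smad9 and Chrd are shown because these are the genes at least 2-fold lower that hold the motif GGCGCC, which is known from BMP-responsive promoters, in the 250 bases before their start; that of Id3, the Id gene that differed least, is shown beside them. The sequences are RefSeq's on GRCm38.p6, were matched by symbol (43 of the 63 genes had an entry), and are of another build than mm9, which the submitters' processing notes name. Each is given 5′ to 3′ on the strand of the gene, ending at the base before the start, with GGCGCC in capitals; the genes shown were chosen after the values were seen.
Id2 (chr12:25096093-25096342, minus strand): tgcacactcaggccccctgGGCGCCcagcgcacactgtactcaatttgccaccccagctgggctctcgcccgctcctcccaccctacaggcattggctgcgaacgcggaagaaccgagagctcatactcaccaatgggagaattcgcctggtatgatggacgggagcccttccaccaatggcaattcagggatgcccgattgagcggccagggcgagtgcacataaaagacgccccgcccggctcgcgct
Id4 (chr13:48260866-48261115, plus strand): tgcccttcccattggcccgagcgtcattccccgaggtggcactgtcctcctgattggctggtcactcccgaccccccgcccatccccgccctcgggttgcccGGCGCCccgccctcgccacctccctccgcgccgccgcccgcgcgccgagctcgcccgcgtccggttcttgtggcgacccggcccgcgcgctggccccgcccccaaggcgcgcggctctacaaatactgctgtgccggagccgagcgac
Smad9 (chr3:54755332-54755581, plus strand): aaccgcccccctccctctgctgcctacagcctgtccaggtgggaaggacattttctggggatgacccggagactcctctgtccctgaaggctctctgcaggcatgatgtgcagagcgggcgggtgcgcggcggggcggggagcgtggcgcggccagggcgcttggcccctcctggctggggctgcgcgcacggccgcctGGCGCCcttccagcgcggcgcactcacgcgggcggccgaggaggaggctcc
Chrd (chr16:20732877-20733126, plus strand): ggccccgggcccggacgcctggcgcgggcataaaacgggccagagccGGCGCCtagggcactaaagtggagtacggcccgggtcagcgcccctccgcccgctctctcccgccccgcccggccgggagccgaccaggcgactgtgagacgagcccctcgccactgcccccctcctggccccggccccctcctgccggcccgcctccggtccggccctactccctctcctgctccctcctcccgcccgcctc
Id3 (chr4:136143572-136143821, plus strand): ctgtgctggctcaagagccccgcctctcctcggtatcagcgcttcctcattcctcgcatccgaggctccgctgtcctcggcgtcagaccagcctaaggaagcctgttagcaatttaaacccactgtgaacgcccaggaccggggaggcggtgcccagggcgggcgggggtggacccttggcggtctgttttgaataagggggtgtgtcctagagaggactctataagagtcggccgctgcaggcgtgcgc

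The match, which reads the same on both strands, begins 231 bases before the start in Id2, 148 in Id4, 51 in Smad9 and 203 in Chrd, and the Id3 window holds none. The same letters were in 9.59% of all 32851 windows of this length and in 21.6% of the 51 windows of the pathway genes, which are richer in G and C (median 65.2% against 52.4%). Of the genes past 2-fold with an entry, 4 of 8 held it, as did 7 of 23 compared genes within 2-fold. A match describes the letters and is no evidence of a binding site.

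Known response genes of both branches were read from lists chosen by function, with earlier results of these data known. Of 16 BMP response genes 15 were compared: 13 were lower and 2 higher in the KO-labelled cells, 4 were at least 2-fold lower and 0 higher, and the median was -0.69. Of all compared genes 49.2% were lower, and 7.46% at least 2-fold lower. The list holds the 4 Id genes, Smad6, Smad7, Smad9 and Nog, so it is not separate from the genes above. Its other 8 genes had 6 lower values, 1 of them past 2-fold, with a median of -0.58. Bambi, a pseudoreceptor that dampens both branches, had 9.14 and 3.14 RPKM (log2 ratio -1.29), and the BMP-induced transcription factor gene Atoh8 47.8 and 27.8 RPKM (-0.76). The homeobox genes Dlx5 (14.1 and 7.35 RPKM) and Dlx3 (1.95 and 0.563 RPKM) lay at -0.86 and -0.92, and Msx2 (26.7 and 27.2 RPKM) and Hey1 (13.2 and 16.5 RPKM) at 0.03 and 0.30.

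The 14 TGF-beta response genes were all within 2-fold, with a median of 0.01. Of all 13865 compared genes 12218 were within 2-fold, and their median was also 0.01. Ctgf had 73.2 and 73.3 RPKM, and Acta2 66.1 and 71.3 RPKM. Fn1 (96.2 and 97.9 RPKM) and Cyr61 (87.1 and 84.8 RPKM) were higher still, near the highest values of any gene (107 and 124 RPKM). Whether such values, or those of Ctgf and Acta2, are compressed, which would make ratios smaller, was not tested. Postn, encoding periostin, was the highest in ratio (21.9 and 41.2 RPKM, log2 ratio 0.88) and Cnn1, encoding calponin, the lowest (31.9 and 19.9 RPKM, -0.65). The difference between the medians of both lists was not tested.

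**Figure D5:**
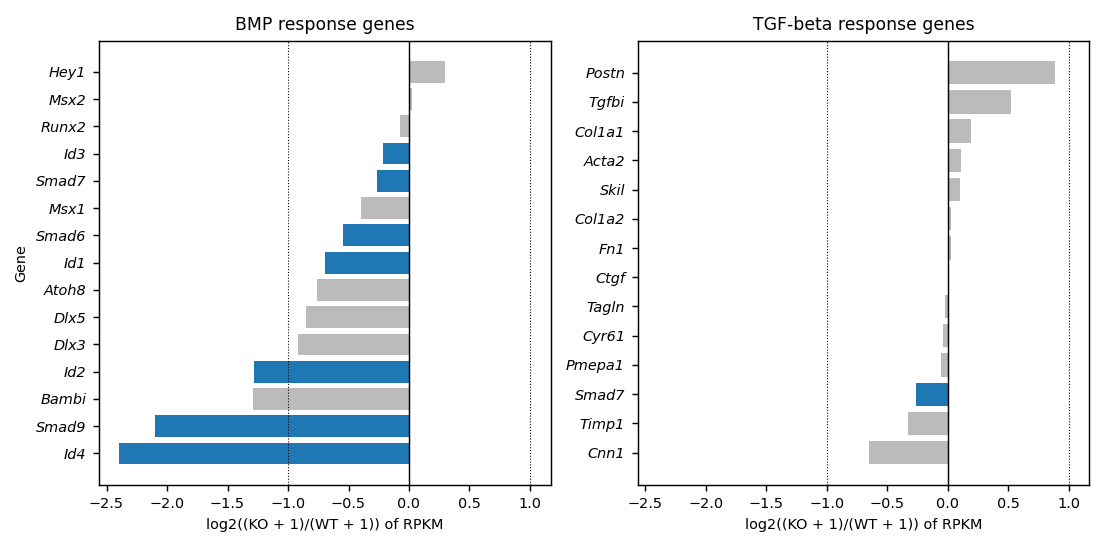
Log2((KO + 1)/(WT + 1)) of RPKM (horizontal) for the compared BMP response genes (left) and TGF-beta response genes (right); blue bars are genes taken in by the symbol rule, grey bars are the others, and dotted lines mark 2-fold. On the left 13 of 15 bars point to lower values in the KO-labelled cells, from Id4 at -2.39. On the right no bar passes 2-fold, beside 12218 of all 13865 compared genes within it.

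Further parts of the pathway outside the symbol rule were mostly level. Of 11 genes of latent TGF-beta storage and activation 10 were compared and 1 was at least 2-fold apart: the fibrillin gene Fbn2, with 23.8 RPKM (2353 reads) and 10.9 RPKM (1091 reads; log2 ratio -1.06). Its GFOLD value of -0.95 in the authors' deposited table falls short of 2-fold. Ltbp4, encoding a latent TGF-beta binding protein, was the highest of them in ratio, at 14.2 and 27.5 RPKM (0.91; 1.01 as the log2 fold change of the authors' deposited table). All 11 SMAD regulators lay within 2-fold, between Ski, a corepressor of SMADs (52.7 and 44.5 RPKM, -0.24), and Nedd4l, a ubiquitin ligase (2.81 and 4.41 RPKM, 0.51). Of all 13865 compared genes 12218 lay within 2-fold. Of 13 further ligands and antagonists 7 were compared, with Dand5, an antagonist of Nodal, the 1 past 2-fold (11.7 and 4.68 RPKM, -1.16) and Lefty1 the highest in ratio (1 and 16 reads, 0.94). By the GFOLD values of the authors' deposited table these calls are the other way round, with Dand5 (-0.82) within 2-fold and Lefty1 (1.15) past it. Among coreceptors and pseudoreceptors 4 of 7 were compared, with Bambi the lowest and Eng (endoglin; 3.29 and 5.69 RPKM, 0.64) the highest. The medians of these lists were -0.08, -0.01, -0.07 and -0.32, in the order given, and 1 gene of each list but the SMAD regulators was at least 2-fold lower, beside 7.46% of all compared genes.

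Genes that the symbol rule takes in but that were given none of the roles above differed little. Bmp1, the protease that trims procollagen and cuts chordin, had 56.7 and 56.9 RPKM, the kinase gene Bmp2k 12.4 and 11.7 RPKM, and Tgfb1i1, a focal adhesion adaptor also called Hic-5, 20.4 and 21.6 RPKM. The secreted glycoprotein gene Fstl1 had 82.4 and 72.3 RPKM (log2 ratio -0.19) and was not counted among the antagonists. Fstl4 had 5 and 0 reads and Fstl5 none.

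Some markers of skeletal and other lineages differed between the libraries along with the skeletal ligands and receptors above. Summed cartilage markers stood at 60.9 and 15.2 RPKM, nearly all from Col2a1 (48.0 and 0.571 RPKM) and Sox9 (12.8 and 14.5 RPKM), while Acan (0.029 and 0.071 RPKM), Col9a1 (0 and 0.152 RPKM) and Matn1 (0 in both) were at or near 0. Bone markers summed to 33.1 and 28.0 RPKM, with Runx2 at 28.5 and 27.0 RPKM, Sp7 at 2.13 and 0.046 RPKM, Alpl at 1.88 and 0.386 RPKM, Ibsp at 0.108 and 0 RPKM and Bglap at 0.464 and 0.612 RPKM (3 and 4 reads). Neural markers summed to 44.4 and 15.9 RPKM, with Sox2 at 24.2 and 0.171 RPKM, Tubb3 at 20.1 and 15.7 RPKM, Elavl3 at 0.105 and 0 RPKM and Sox10 at 0 in both. Epithelial (2.04 and 1.45 RPKM), blood (7.11 and 7.50 RPKM) and muscle markers (0.836 and 0.342 RPKM) stayed low in sum, but single markers differed in both directions: Cdh1 had 75 and 3 reads and Csf1r 64 and 3 reads, while Krt8 had 1 and 18 reads and Cd68 62 and 90 reads. The part of these differences in the values of Gdf6, Bmpr1b, Chrd, Smad9 and the Id genes was not tested.

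Of the 654 RNA editing sites listed in the WT-labelled cells 4 (0.612%) were in the 63 genes, all in 1 gene. That gene is 1.59% of the 63, where 0.725% of all genes analysed held a listed site. All 4 were in introns of Fstl1 on chromosome 16 (mm9, plus strand). Position 37832987 was edited in 2 of 16 reads (12.5%, Wilson 95% interval 3.50 to 36.0), 37832996 in 3 of 16 (18.8%, 6.59 to 43.0), 37833015 in 2 of 13 (15.4%, 4.33 to 42.2) and 37833525, in a repeat, in 3 of 8 (37.5%, 13.7 to 69.4). None of them is in the KO-labelled list. Of its 110 sites 1 was in the 63 genes: a site in a repeat of the 3′ UTR of Chrdl1 on chromosome X (139733353, minus strand), with the mismatch in 2 of 2 reads. A list names only sites with at least 2 edited reads, so a missing site is not thereby unedited, and with 0 sites listed in both libraries no test of editing was made in these genes.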

How the data were processed

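Poly(A)+ RNA-seq libraries of 2 cultures were used, 1 per genotype label, grouped by title. STAR 2.4.0d, SAMtools and the mm9 build appear in the submitters' processing notes, with no step given for them. For the counting rule, annotation, strand use and editing caller: not given in the sources used here. RPKM values, a log2 fold change and GFOLD values were deposited by the authors in 1 table, per the file headers; its empirical FDR, a p-value-like column deposited as 1 in every row, was not used. Editing files deposited by the authors give the count of reads and of mismatches per site and the level as a fraction.

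A gene was compared if its larger RPKM was at least 1, as log2((KO + 1)/(WT + 1)), with a threshold of 2-fold and no p-value. Whole reads were recovered from the deposited RPKM and log2 fold change, which is that of reads plus 1: the totals behind the RPKM values came to 9446911 and 9546997 reads, and 17271 of 17979 genes above 0 (96.1%) had 1 solution that gave back the 6 printed digits. Among the 63 genes 61 had one; Bmpr1a and Tgfbr1 had several. The procedure was tested on simulated data. Intervals are exact 95% (Clopper-Pearson, conditional on the summed reads). They cover counting error only, since reads lacking molecular identifiers can be copies of 1 molecule. Editing levels have Wilson intervals; shared sites (10 reads or more on each side) were to be tested by Fisher's exact test. Python 3.11.15, numpy 2.4.6, pandas 2.3.3 and scipy 1.17.1 were used.

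Left out of every count, list and plot, and not reported here, are 2 genes of the table, 1 of which the symbol rule would take in. The genes, role groups and lists were chosen with earlier results of these data known. By rule, every one of the 63 genes at 1 RPKM or more is named with its values, and of the further lists those 2-fold apart and the ends in ratio; other genes named were chosen after their values were seen. Pseudocounts, filters, centring, the authors' fold changes and recovered reads were tried as alternatives.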

Additional observations from a re-analysis of the deposited data

How the results depend on the processing

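The 2 higher and 10 lower genes kept their number, and the same 12 genes were called, with a pseudocount of 0.1 RPKM, after centring on the median of all compared genes, with the authors' deposited log2 fold change, with their GFOLD value at a threshold of 1, without a filter on low values, without the 6 genes of none of the named roles, and with recovered reads plus 1 (added after seeing the data). Among all genes 7.46% were at least 2-fold lower in the main setting. That share was 9.33% with the pseudocount of 0.1 RPKM, 8.84% with the authors' log2 fold change and 9.63% with recovered reads plus 1. It was 7.49% after centring, 5.60% with the GFOLD value and 4.31% without a filter. At least 2-fold higher were 4.42%, and 5.99%, 6.44%, 5.68%, 4.39%, 3.21% and 2.55% in the same order. Fewer were called with a pseudocount of 5 RPKM (1 higher, 5 lower; 1.38% and 3.01% of all genes), with a larger value of at least 5 RPKM (1 and 6; 3.01% and 5.61%), and with both values at least 1 RPKM (1 and 6; 2.30% and 4.05%; added after seeing the data); all of these belong to the 12, and the last 2 settings test fewer genes (36 and 40). The median log2 ratio of -0.14 lay between -0.17 and -0.07 in all settings but the GFOLD value, where it was 0 because GFOLD sets 18 of the 46 genes to 0. With the authors' log2 fold change 29 of the 46 lay below 0, and with the GFOLD value 20. The medians over all compared genes on these 2 scales were 0.06 and 0. No gene past 2-fold changed its direction under any setting. Among the further lists, a pseudocount of 0.1 RPKM, the authors' log2 fold change and recovered reads plus 1 each put Dlx3 past 2-fold lower (5 of the BMP response genes in place of 4) and Lefty1 and Amh past 2-fold higher, and the authors' log2 fold change also Ltbp4. A pseudocount of 5 RPKM took Bambi, Fbn2 and Dand5 within 2-fold, which left 3 BMP response genes at least 2-fold lower. The GFOLD value took Fbn2 and Dand5 within 2-fold and put Lefty1 past 2-fold higher. Medians close to 0 changed sign with the authors' log2 fold change, to 0.04 for receptors and for SMAD regulators and 0.02 for the genes of none of the named roles. With recovered reads plus 1 they were 0.05 and 0.04 for receptors and SMAD regulators. That setting holds 9 of 11 receptors and 10 of 11 SMAD regulators. It lacks Bmpr1a, Tgfbr1 and Tgif1, whose log2 ratios were slightly below 0. No paired analysis was possible because each group has 1 library. No edited site could be tested at a minimum of 5, 10 or 20 reads. Depth limits Gdf6, Bmp8b, Bmp2 and Acvr2b, each with 5 reads or fewer in 1 library. Grem1 and Fstl1, and Fn1 and Cyr61 of the TGF-beta response genes, lie near the highest values of any gene, where compression was not tested. Nor was compression tested at lower levels, such as those of the main receptors, SMADs, Id genes, Ctgf and Acta2.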
